A study of Mus musculus with 15 samples.

Results

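The genes described here are Myc and 36 genes of ribosome production and growth metabolism that are widely used as readouts of MYC activity. They are 37 genes in all, chosen by name, with earlier results of these data known. They are 1 transcription factor, 3 subunits of RNA polymerase I, and 3 box C/D and 4 box H/ACA small nucleolar ribonucleoprotein (snoRNP) proteins. The others are 7 small subunit and 8 large subunit processing factors, 7 other nucleolar proteins and 4 metabolic genes. All 37 were listed, and all 37 had a value of at least 10 in 3 or more libraries, in each of the 4 deposited tables, which list 17775 to 19035 genes. RNA was sequenced from total bone marrow of mice with leukemia driven by the MLL-AF9 fusion oncogene, in 15 libraries that form 5 groups of 3. Donor mice on the C57BL/6 strain were homozygous for human GFI1 at the mouse Gfi1 locus (GFI1 KI/KI, called 36S here as in the library titles), for the 36N variant of human GFI1 (36N), or for a knock-down allele (KD) with 10 to 20% of GFI1. GFI1 is a zinc finger repressor of blood cell development.

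In every group, lineage-depleted donor cells had received MLL-AF9 together with GFP from a retrovirus and were sorted for GFP. They were transplanted after irradiation of the recipients with 7 and 3 Gy, and the leukemias were passed on serially after 3 Gy. RNA came from the total marrow of the fourth recipients, with no sort named at that step, so host cells can be in it. Cells of 36S and 36N leukemias were also analysed after exposure to temozolomide (TMZ), a DNA-methylating drug, at 50 µg/ml for 20 h. The labels do not say whether the libraries of a group came from separate primary leukemias. The p-values therefore measure only the spread between these libraries, which may be technical.

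MYC is a transcription factor that binds DNA with its partner MAX at E-boxes and is known to drive growth genes. Ribosome production begins in the nucleolus, where RNA polymerase I copies the ribosomal DNA, snoRNPs guide methylation and pseudouridylation of the transcript, and assembly factors cut and fold it into the small and large subunits. Leukemic blasts divide fast and are known to need a high ribosome output. The human GFI1 alleles are the only genetic difference named between the groups.

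The E-box letters CACGTG, which are their own reverse complement, were looked for in RefSeq promoter windows of GRCm38.p6 that run from 250 bases before to 50 bases after a start site. Windows were found for 31 of the 37 members, and 6 of these genes, or 19.4%, held the letters, beside 8.09% of 27025 genes with a window. The latter were not limited to genes detected here, as all members were, so the shares are of unlike sets. The 6 sites are shown with at most 30 bases, 5′ to 3′ on the strand of the gene and with the E-box in capitals, because they are the letters through which MYC could be linked to these genes by sequence. A match is a description and not a measured binding site.
Wdr43: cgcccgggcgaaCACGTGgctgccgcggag
Utp20: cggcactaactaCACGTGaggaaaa
Tsr1: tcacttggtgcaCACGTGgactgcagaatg
Pes1: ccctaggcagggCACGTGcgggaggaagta
Mybbp1a: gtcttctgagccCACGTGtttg
Nop2: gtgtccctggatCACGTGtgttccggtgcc

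In Wdr43 the stretch lies at chr17:71616220-71616249 and the E-box begins at base 18 after the start site. The other stretches lie at chr10:88826765-88826789 (Utp20, minus strand), chr11:74898092-74898121 (Tsr1), chr11:3963965-3963994 (Pes1), chr11:72441355-72441376 (Mybbp1a) and chr6:125131811-125131840 (Nop2). The site of Nop2 is the only one of the 6 that lies before the start site, at base -60, while the other 5 begin 3 to 41 bases after it. The windows of Wdr12, Nop58 and Slc19a1, which are taken up below, do not hold these letters.

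Values are normalized counts as deposited, with column totals of 11265945 to 24264818 per library. They are not divided by gene length, so levels are compared between libraries and not between genes. The read depth behind them is unknown. The 36S columns of the 36N table and of the KD table were identical (largest difference 0), so the 3 untreated genotypes share a scale, and both untreated comparisons share these 36S libraries. The other 2 tables were normalized separately. Gfi1 itself was listed in 1 of the 4 tables, at 505, 565 and 367 in untreated 36N and at 723, 504 and 555 in 36N with TMZ. Reads on the mouse gene do not check a human allele.

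In untreated marrow, Myc was highest in 36S, lower in 36N and lowest by its mean in KD. Myc (chr15:61985391-61990374, plus strand, mm10) stood at 4264, 4634 and 3524 normalized counts in the 36S libraries 1, 2 and 3. It stood at 2999, 3252 and 2555 in the 36N libraries 4, 5 and 6, and at 2714, 2062 and 2610 in the KD libraries 7, 8 and 9. Every 36N and every KD library lay below every 36S library, while 36N and KD overlapped. The KD mean of 2462 ± 351 was 0.595 times the 36S mean of 4141 ± 566 (SD, n = 3 each). The log2 fold change in KD was -0.75 (SE 0.16, 95% interval -1.11 to -0.39, limma adjusted p = 0.0162), so Myc fell in KD. In 36N the mean was 2935 ± 353 and the log2 fold change -0.49 (SE 0.14, 95% interval -0.80 to -0.19), and it did not pass the test (limma adjusted p = 0.0809). In bulk marrow, fewer cells of a type and less RNA per cell cannot be told apart.

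Across the whole list, KD had 5 of 37 members lower and 0 higher at an adjusted p under 0.05. The background in the same fit was 4.86% lower and 6.61% higher of 13109 genes. The median log2 fold change of the members in KD was -0.38, beside -0.01 over all genes, and 36 of 37 estimates were negative, beside 50.9% of all genes. The KD libraries lay wholly below the 36S libraries for 21 of 37 members, beside 15.8% of all genes. In 36N, 1 of 37 members was lower and 0 were higher, with a background of 2.01% lower and 2.55% higher of 13137 genes. There the members had a median of -0.27, beside -0.01 over all genes, 35 of 37 estimates were negative, beside 51.7% of all genes, and 6 of 37 members lay wholly below 36S, beside 13.8% of all genes. The list thus held few called genes, while its estimates lay mostly on the lower side in both comparisons, which share the 36S libraries. Because the members were chosen with earlier results of these data known, the contrast with all genes is a description only.

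**Figure D1:**
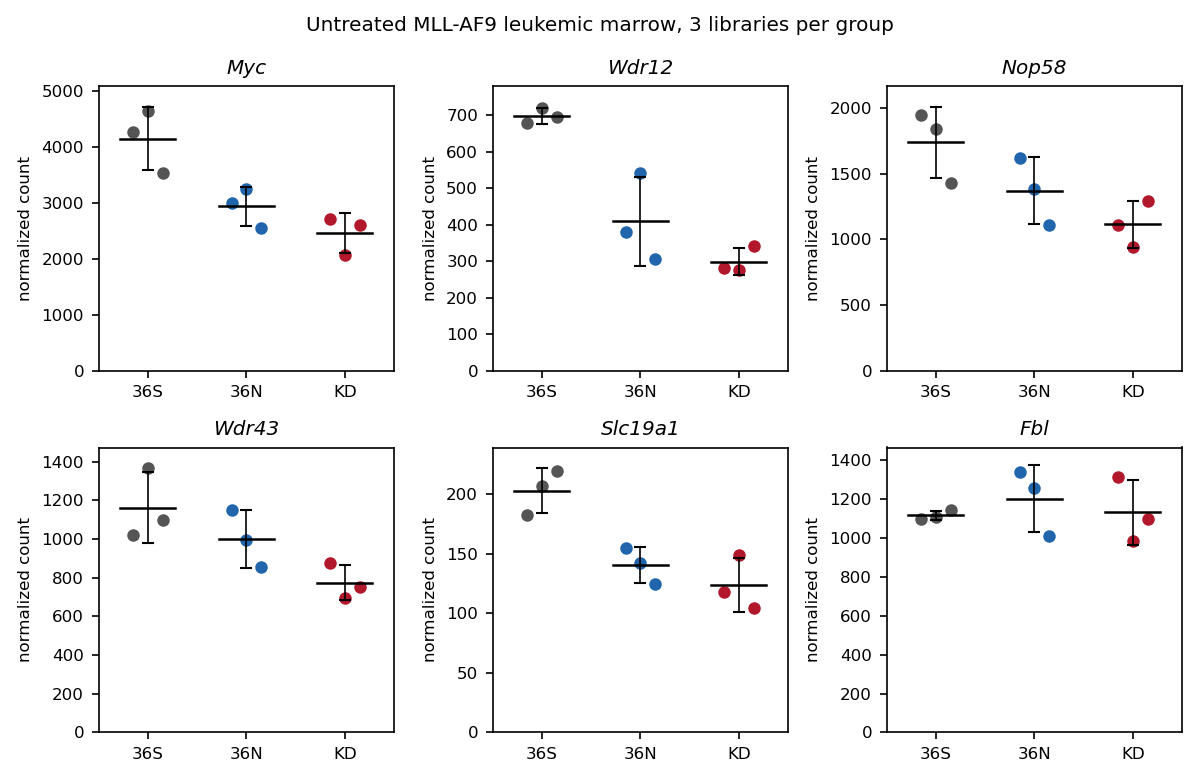
Normalized counts (y axis, from 0) of 6 members in each untreated library of 36S, 36N and KD (x axis); points are libraries, the horizontal bar is the mean and the whisker the SD of 3 libraries. Myc, Wdr12, Nop58, Wdr43 and Slc19a1 passed the test in KD, and Fbl, at 1117 in 36S and 1133 in KD, did not.

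The largest difference of the list was in Wdr12, part of the complex with Pes1 and Bop1 that is needed to mature the large subunit RNA. Wdr12 (chr1:60069785-60098645, minus strand) stood at 677, 720 and 696 normalized counts in 36S, at 380, 543 and 306 in 36N and at 281, 276 and 341 in KD. The 36S libraries were close together, and all libraries of the other 2 genotypes lay below them. In KD the mean of 299 ± 36.4 was 0.429 times the 36S mean of 698 ± 21.4 (log2 fold change -1.23, SE 0.14, limma adjusted p = 8.88e-04). This call remained under all 13 alternatives of the processing tried for KD, with adjusted p-values up to 0.00869. In 36N the mean was 409.7 ± 122 (log2 fold change -0.81, SE 0.19), and the limma adjusted p of 0.0495 lay just under the threshold. Over its 13 alternatives that p ran from 0.0188 to 0.162 and stayed under the threshold in 4, and leaving out any of 36S libraries 1, 2 and 3 (0.0936, 0.162 and 0.0967) or of 36N libraries 4 and 6 (0.118 and 0.109) ended the call. Exons of Wdr12 overlap those of Carf on the other strand, and whether counting used the strand is not stated. Polr1a, Nop56, Dkc1, Nhp2, Wdr43, Heatr1, Rrp9, Tsr1, Bop1, Pes1, Rrp1b, Gnl3 and Mybbp1a also overlap exons of a gene on the other strand.

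The partners of Wdr12 did not pass. Bop1 stood at 809, 759 and 734 in 36S, at 649, 587 and 507 in 36N and at 683, 526 and 650.1 in KD. Its 36S libraries were the highest, yet the log2 fold changes of -0.41 in 36N (limma adjusted p = 0.113) and -0.32 in KD (0.197) missed the threshold. Pes1 had -0.19 in both. The other large subunit factors are Ebna1bp2, the RNA methyltransferase Nop2, Nop16, the helicase Ddx18 and Rrp1b. Their log2 fold changes ran from -0.37 to -0.25 in 36N and from -0.45 to -0.21 in KD, and 0 of these 5 passed.

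Of the box C/D proteins, which carry out 2′-O-methylation of ribosomal RNA, only Nop58 passed, and only in KD. Nop58 (chr1:59684971-59719044, plus strand), a core scaffold protein, stood at 1946, 1841 and 1433 in 36S, at 1617, 1383 and 1108 in 36N and at 1111, 941 and 1296 in KD. The KD libraries lay below all 36S libraries, while those of 36N overlapped them. The KD mean of 1116 ± 177 was 0.641 times the 36S mean of 1740 ± 271 (log2 fold change -0.64, SE 0.17, limma adjusted p = 0.0374), and in 36N the log2 fold change was -0.35 (limma adjusted p = 0.275). The scaffold partner Nop56 had -0.21 in 36N and -0.32 in KD without passing. Fbl, the methyltransferase of the particle, had 0.10 in 36N and 0.01 in KD, and it is 1 of the 2 members with a positive estimate in 36N and the only such member in KD. Whether Fbl differs from Nop58 in its response was not tested.

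The box H/ACA proteins guide pseudouridylation and, with Dkc1, also stabilise telomerase RNA. None of the 4 passed in either genotype. Dkc1, the pseudouridine synthase, stood at 1443, 1425 and 1247 in 36S and at 1130, 959 and 1040.3 in KD. These groups did not overlap, with a log2 fold change of -0.40 (SE 0.13, limma adjusted p = 0.0832). In 36N Gar1 had the lowest p of the 4, with a log2 fold change of -0.45 (limma adjusted p = 0.222). Nhp2 and Nop10 had -0.16 and -0.39 in 36N, and -0.08 and -0.29 in KD.

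Among the small subunit factors, Wdr43, a part of the early processome, passed in KD. Wdr43 (chr17:71615895-71659031, plus strand) stood at 1021, 1369.7 and 1098 in 36S, at 1153, 997 and 854 in 36N and at 874, 698 and 752 in KD. KD did not overlap 36S, and 36N did. The KD mean of 775 ± 90.6 was 0.666 times the 36S mean of 1163 ± 183 (log2 fold change -0.58, SE 0.15, limma adjusted p = 0.0404). In 36N it had -0.22, and the member of this role with the lowest p there was Rrp9, with -0.29 (limma adjusted p = 0.365). Tsr1 and Nob1, which act late on the small subunit precursor, had log2 fold changes of -0.58 and -0.54 in KD without passing. Utp20, Rrp12, Rrp9 and Heatr1 ran from -0.47 to -0.16 there. An antisense gene, CT010429.2, overlaps exons of Wdr43.

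RNA polymerase I subunits did not pass. Polr1b, the second largest subunit, stood at 359.9, 427 and 359 in 36S and at 307, 284 and 233 in KD, with all KD libraries lower and a log2 fold change of -0.48 (limma adjusted p = 0.0974). Polr1c, which RNA polymerase III also contains, had -0.52 and Polr1a, the catalytic subunit, had -0.34 in KD. In 36N the 3 subunits ran from -0.27 to -0.01, and Polr1b had the lowest p (limma adjusted p = 0.38).

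The other nucleolar proteins were lower by their means in both genotypes, but none of the 7 passed. In KD the member of this role closest to the threshold was Gnl3 (nucleostemin), a GTP-binding protein of proliferating cells. It stood at 940.0, 729 and 772 in 36S and at 536, 452 and 641 in KD, with no overlap (log2 fold change -0.59, SE 0.17, limma adjusted p = 0.0524). In 36N that place was taken by the snoRNP chaperone Nolc1, with -0.39 (limma adjusted p = 0.274). Nucleolin (Ncl), nucleophosmin (Npm1), Nolc1, the helicase Ddx21, Mybbp1a and Pa2g4 had log2 fold changes from -0.50 to -0.34 in KD, and from -0.39 to -0.12 in 36N.

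Of the metabolic genes, the reduced folate carrier Slc19a1 fell in KD. Slc19a1 (chr10:77032241-77061002, plus strand) stood at 183, 207 and 219.8 in 36S, at 155, 143 and 125 in 36N and at 118, 149 and 104 in KD. Each genotype lay wholly below 36S. The KD mean of 124 ± 22.7 was 0.61 times the 36S mean of 203 ± 18.9 (log2 fold change -0.72, SE 0.20, limma adjusted p = 0.0456). In 36N the mean was 141 ± 15.1 (log2 fold change -0.53, SE 0.17, limma adjusted p = 0.127). Odc1 and Srm, enzymes of polyamine synthesis, and Cad, which starts pyrimidine synthesis, had log2 fold changes of -0.27, -0.53 and -0.31 in 36N and of -0.35, -0.49 and -0.35 in KD, without passing.

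**Figure D2:**
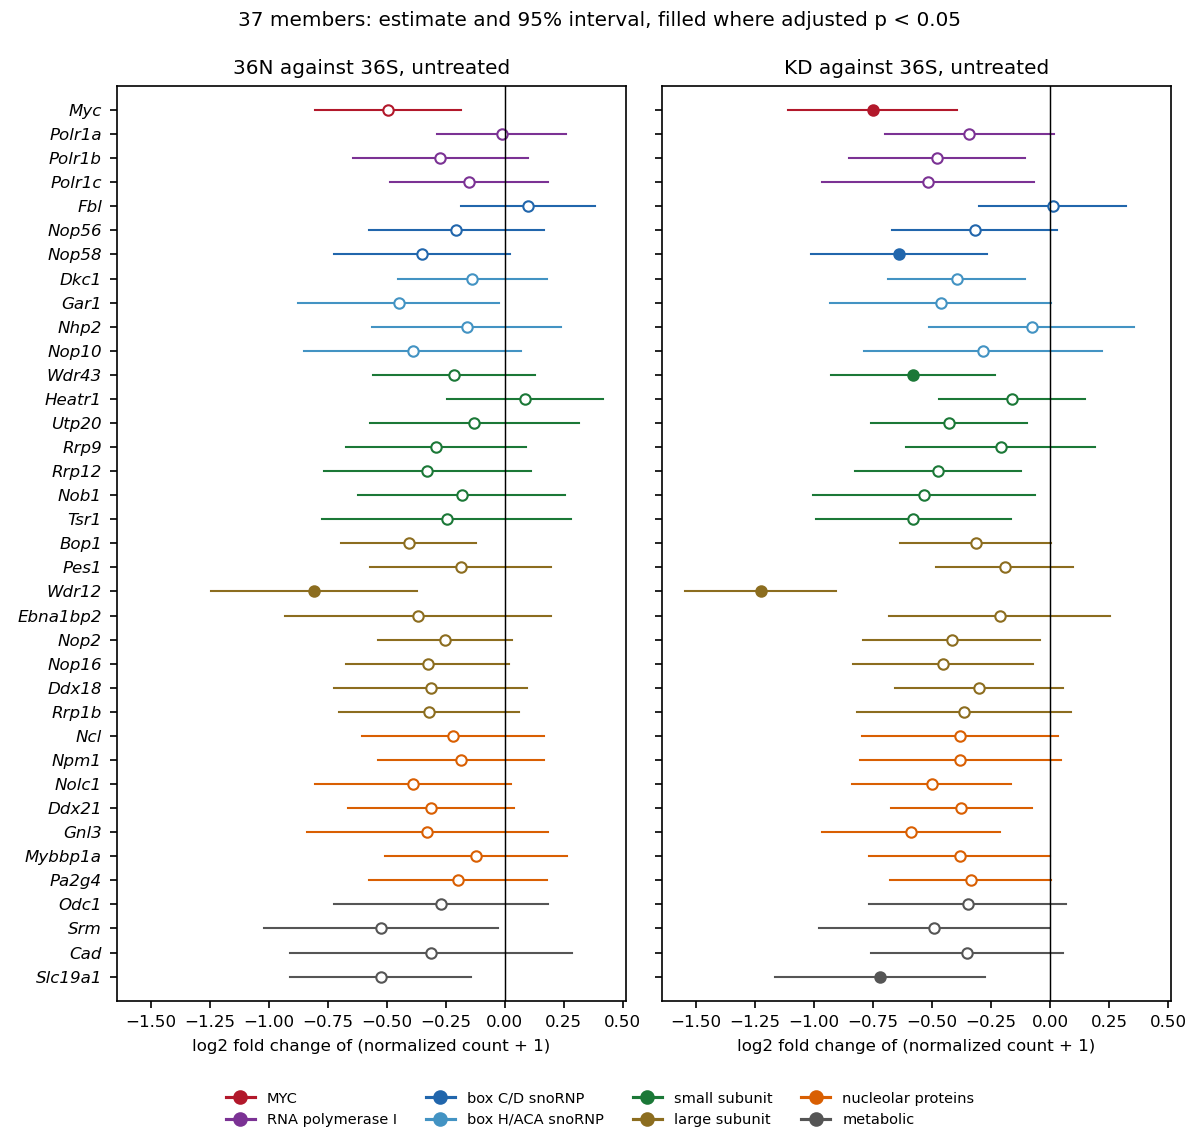
Log2 fold change with its 95% interval (x axis) for the 37 members ordered and coloured by role (y axis), for 36N and for KD against the same 3 untreated 36S libraries; filled circles passed the test over all genes. Most estimates lie below 0 in both panels, and Wdr12, at -0.81 and -1.23, lies farthest from 0.

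Apart from Wdr12, each call in KD was lost when some single library was left out. Of the 37 members, 3 were called without library 1 of 36S, 1 without its library 2 and 3 without its library 3. Dropping library 7, 8 or 9 of KD left 2, 3 and 1 members called. Myc kept its call in 4 of these 6 fits, with adjusted p-values of 0.0925 without 36S library 2 and 0.0523 without KD library 9. With libraries scaled to equal totals, 12 members were lower in KD, and the median of all genes moved from -0.01 to -0.13 while that of the members moved from -0.38 to -0.50. In 36N, leaving out library 6 moved the median of the members from -0.27 to -0.11 and left 28 of 37 estimates negative.

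The members moved together from library to library within a group. Library 6 of untreated 36N held the lowest value for 35 of 37 members, beside 38.9% of all genes. Library 3 of 36S did so for 28 and KD library 8 for 29 of 37, beside 34.3% and 40.3% of all genes. Libraries of a group with low values for several members at once therefore weigh on all members together, and the 37 genes are not 37 independent readings of a genotype.

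**Figure D3:**
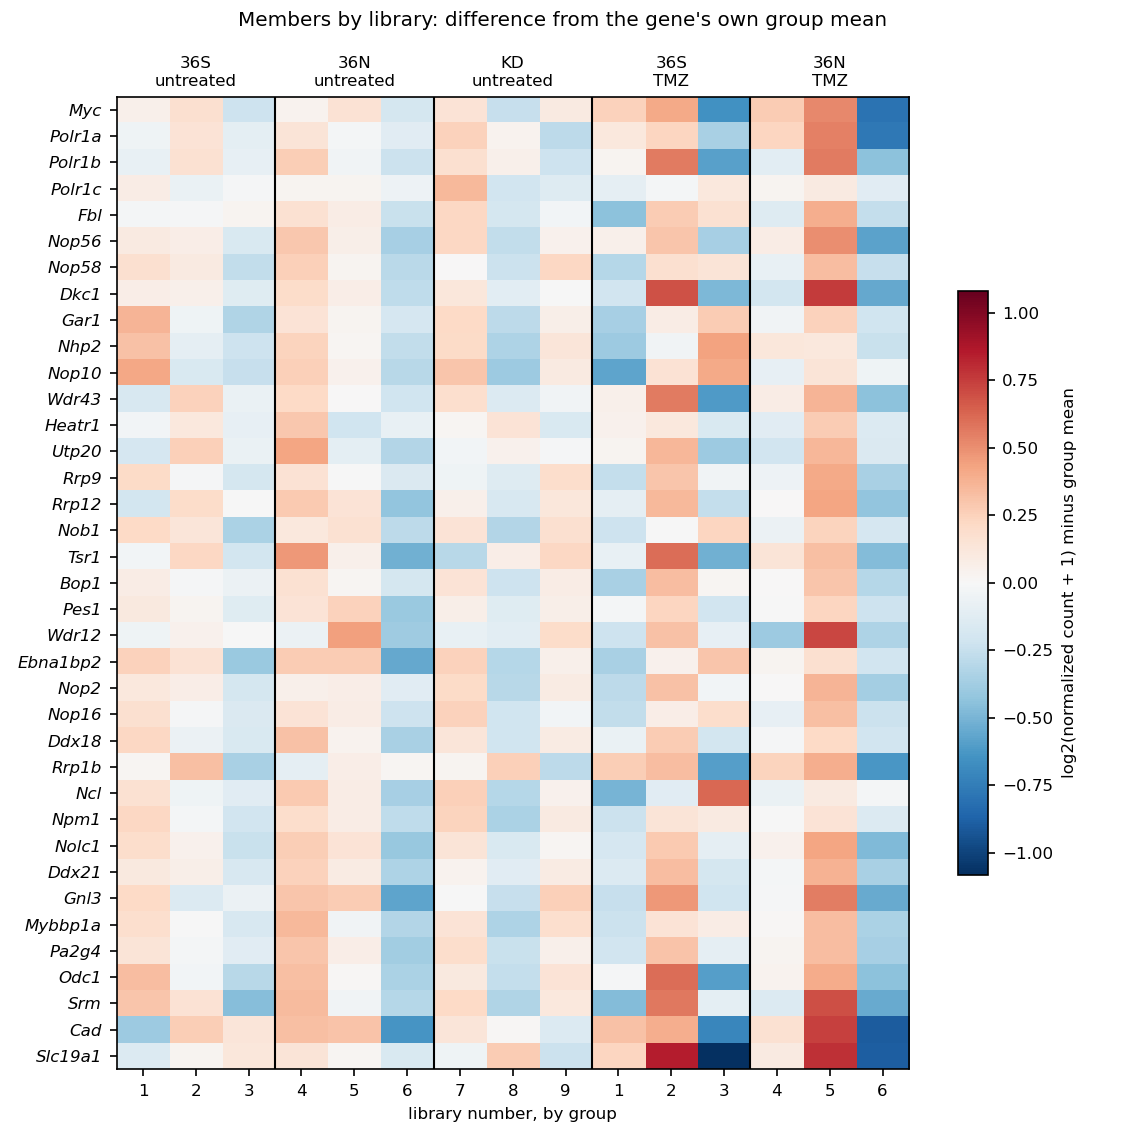
Difference of log2(normalized count + 1) from the mean of the gene's own group (colour) for the 37 members (y axis) in each library of the 5 groups (x axis); untreated libraries come from the 2 tables that share 36S, treated libraries from the table of both genotypes with TMZ. Columns of like colour show the shared movement: 36N library 6 is lowest for 35 of 37 members without TMZ, and 36N library 5 is highest for 36 of 37 with TMZ.

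Genes of the same pathway outside the list gave few calls in untreated marrow. Of 14 other genes of the MYC network (partners, antagonists and regulators of MYC stability), 13 were tested and 0 passed in either genotype, with medians of 0.08 in 36N and -0.04 in KD. Of 12 other RNA polymerase I genes, 0 passed in 36N, and 1 was lower in KD: the polymerase subunit gene Cd3eap (log2 fold change -0.56, limma adjusted p = 0.0459). Of 38 other small subunit genes tested, Mphosph10 was lower in 36N (-0.62), and Wdr46 (-0.59) and Dhx37 (-0.53) were lower in KD. Of 34 other large subunit genes, Sdad1 was higher in 36N (0.63), and Noc3l was lower in KD (-0.54). The medians of these last 3 lists were -0.09, -0.20 and -0.18 in 36N and -0.23, -0.26 and -0.22 in KD, beside -0.01 over all genes in each. Over all genes, 2.01% were lower and 2.55% higher in 36N, and 4.86% were lower and 6.61% higher in KD.

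Markers of myeloid cell types also differed between these groups. In KD, 7 of 9 monocyte and macrophage markers tested were higher, with sums of 90850 to 145900 normalized counts over 10 genes, beside 44180 to 50130 in 36S. Of 10 neutrophil markers 5 were lower and 1 was higher, with sums of 38620 to 52480, beside 68630 to 200900 in 36S. Of 8 T and NK cell markers tested 4 were higher in KD, with sums of 226 to 790 beside 69.9 to 194.9. Of 7 B and plasma cell markers tested 2 were lower, with sums of 6108 to 6707 beside 7646 to 11920. Of 6 mast and basophil markers tested 2 were lower and 2 higher, with sums of 2901 to 3437 beside 1711 to 2800. In 36N, 2 neutrophil markers were lower and 1 was higher, 1 of 9 monocyte markers was higher and 1 of 6 mast and basophil markers was lower. Their part in the values of the members was not tested.

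With TMZ, 36N marrow had less Myc, and the ribosome genes moved in both directions. In the table of 36N with and without TMZ, Myc stood at 3183, 3452 and 2727 in the untreated libraries 4, 5 and 6 and at 1644, 1966 and 794 in the treated libraries 4, 5 and 6. The groups did not overlap, and the mean went from 3121 ± 367 to 1468 ± 605 (0.47 times; log2 fold change -1.18, SE 0.31, 95% interval -1.91 to -0.45, limma adjusted p = 0.0109). Myc kept its call under all 15 alternatives, and its log2 fold change ran from -0.79 without treated library 6 to -1.83 in the fit between tables that is described below. Of the 37 members 8 fell and 12 rose, while 33.5% of 14390 genes fell and 36.3% rose. An unadjusted limma p under 0.05 was reached by 59.5% of the members, beside 72.3% of all genes. The members were thus called less often than genes at large, and their median of 0.03 lay beside 0.06 over all genes. With libraries scaled to equal totals 10 members fell and 8 rose, so the share of calls that were increases went from 60% to 44.4%, and the median of all genes moved to -0.09.

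These directions also depend on the table. The same untreated 36N libraries appear in 2 tables, and the ratio of a gene's values between them had a median of 1.45 but ran from 0.886 to 1.886 between the 5th and 95th percentiles of genes in library 4. For a given gene that ratio was nearly the same in all 3 libraries, with a median SD of 0.0043 on the log2 scale, and the TMZ libraries, which also appear in 2 tables, showed the like. Such a factor cancels within a table only if it applies to both groups alike. The TMZ difference was therefore also computed between tables, with untreated values from the table with untreated 36S, treated values from the table with treated 36S, and all libraries at equal totals, an alternative chosen after these ratios were seen. It gave 6 members lower and 3 higher, beside 29% and 33.3% of 13919 genes. The calls made both ways were Myc, Dkc1, Nop10, Ncl, Nolc1 and Pa2g4 lower and Polr1c, Rrp9 and Nob1 higher, and 0 members were called in opposite directions. Another 11 were called within the table only, and 5 members (Fbl, Nop56, Nop58, Wdr43 and Tsr1) had estimates of the other sign. The fit between tables also carries any factor that differs between its 2 tables, so it is not a check free of the factor. Calls made both ways are therefore a description only. The source of the gene factor was not tested.

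**Figure D4:**
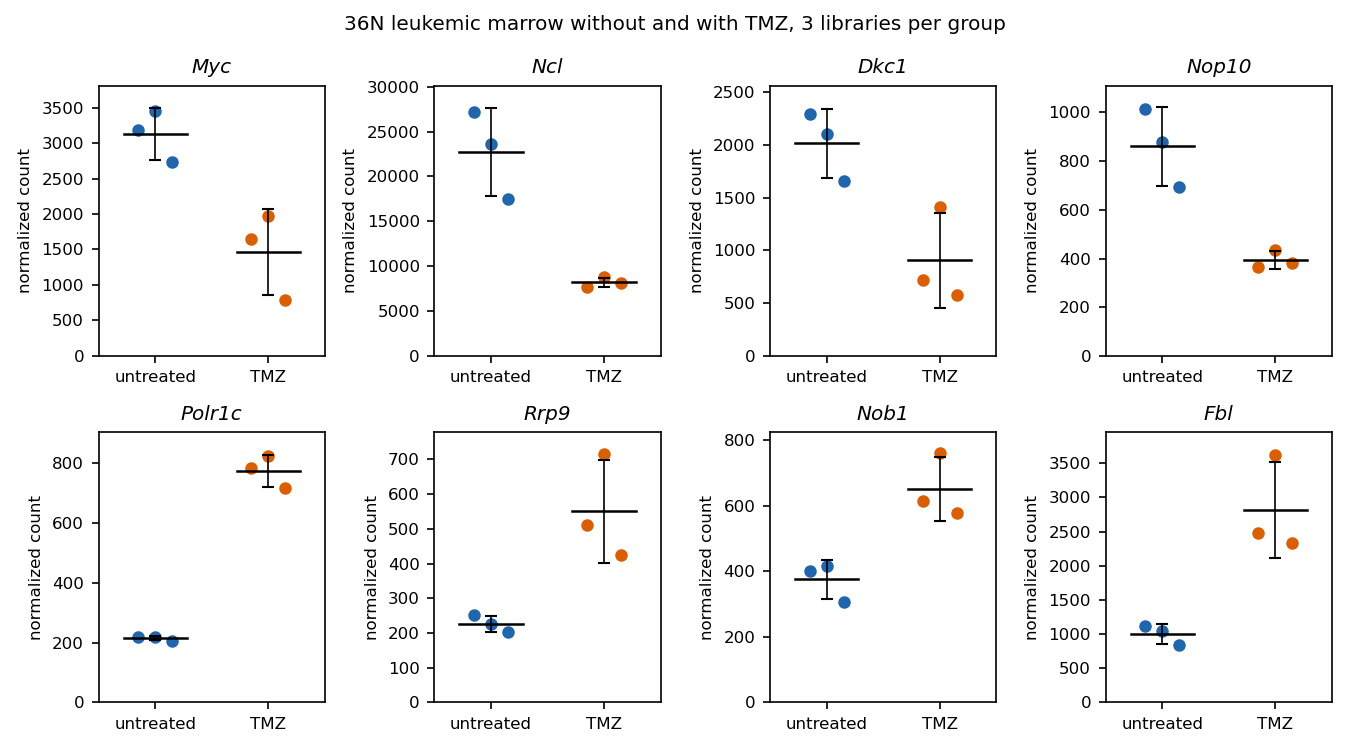
Normalized counts (y axis, from 0) of 8 members in each 36N library without and with TMZ (x axis) in the table that holds both; points are libraries, the bar is the mean and the whisker the SD of 3 libraries. Myc, Ncl, Dkc1 and Nop10 are lower and Polr1c, Rrp9 and Nob1 higher with TMZ within the table and between tables, and Fbl is higher within the table only.

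The nucleolar proteins held 4 of the 8 decreases. Ncl, the nucleolin gene, stood at 27165, 23592 and 17471 untreated and at 7728, 8753 and 8161 with TMZ, with no overlap (log2 fold change -1.45, SE 0.18, limma adjusted p = 2.34e-04). Between tables its log2 fold change was -0.83 (adjusted p = 0.00362). Pa2g4, a growth regulator that binds ribosomes, had -1.04 within the table and -0.89 between tables, with untreated values of 4711 to 7487 and treated values of 2335 to 3721. Nolc1 had -0.71 and -0.88, and Ddx21 had -0.78 within the table and -0.52 between tables, where it was not called. Npm1, Mybbp1a and Gnl3 did not pass, with log2 fold changes of -0.28, -0.06 and 0.80.

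The box H/ACA and box C/D proteins did not move as sets. Dkc1 stood at 2293, 2101 and 1655 untreated and at 724, 1415 and 577 with TMZ, a log2 fold change of -1.25 (SE 0.32, limma adjusted p = 0.00866). Nop10, a small structural protein of the same particle, stood at 1014, 878 and 692 untreated and at 365, 433 and 383 with TMZ (-1.11, SE 0.17, limma adjusted p = 7.94e-04). In both genes all treated libraries lay below all untreated ones, and between tables the log2 fold changes were -1.07 and -0.68. Their partner Gar1 had 0.92 within the table and 0.05 between tables, and Nhp2 had 0.01 and 0.06. Fbl stood at 1113, 1046 and 843 untreated and at 2484, 3621 and 2329.9 with TMZ (1.47, SE 0.19, limma adjusted p = 3.34e-04), but had -0.11 between tables. Nop56 likewise had 1.005 and -0.42. The sign of these 2 box C/D genes thus differed between the 2 fits, neither of which is known to be free of the gene factor. Nop58 had 0.03 and -0.13.

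Increases called within the table and between tables were those of Polr1c, Rrp9 and Nob1. Polr1c stood at 218, 218 and 206 untreated and at 782, 824 and 716 with TMZ. The lowest treated library, at 716, lay far above the highest untreated one, at 218, and the log2 fold change was 1.85 (SE 0.14, limma adjusted p = 2.13e-05), or 1.26 between tables. The other polymerase subunits, Polr1a and Polr1b, had -0.10 and 0.20 and did not pass. Rrp9, which belongs to the U3 snoRNP of the small subunit processome, stood at 251, 225 and 203 untreated and at 511, 715 and 425 with TMZ (1.25, SE 0.22, limma adjusted p = 0.00149), or 0.68 between tables. Nob1, the nuclease that makes the last cut of the small subunit RNA, had untreated values of 307 to 417 and treated values of 577 to 761 (0.79, SE 0.18, limma adjusted p = 0.00547), or 0.71 between tables. Of the other small subunit factors, Heatr1 (0.74), Utp20 (0.72) and Wdr43 (0.65) were called within the table only, Wdr43 having -0.37 between tables. Rrp12 (-0.56) and Tsr1 (-0.40) did not pass.

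The 3 partners of the large subunit complex went separate ways within the table. Pes1 stood at 2796, 3012 and 1927 untreated and at 853, 1016 and 746 with TMZ (log2 fold change -1.55, SE 0.20, limma adjusted p = 2.82e-04). Wdr12 stood at 433, 618 and 349.6 untreated and at 901, 1968 and 960 with TMZ (1.39, SE 0.33, limma adjusted p = 0.00677), and Bop1 had 0.60. None of these groups overlapped. Between tables the 3 estimates kept their signs at -0.46, 0.70 and 0.24 but did not pass, with adjusted p-values of 0.0815, 0.0989 and 0.296. The other large subunit factors did not pass, with log2 fold changes from -0.13 (Rrp1b) to 0.46 (Ebna1bp2). Of the metabolic genes only Cad was called, at 1211, 1201 and 626 untreated and 2457, 3691 and 1199 with TMZ. These Cad values overlapped (1.19, SE 0.43, limma adjusted p = 0.0368), and Odc1 (0.62), Slc19a1 (0.57) and Srm (-0.37) did not pass.

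**Figure D5:**
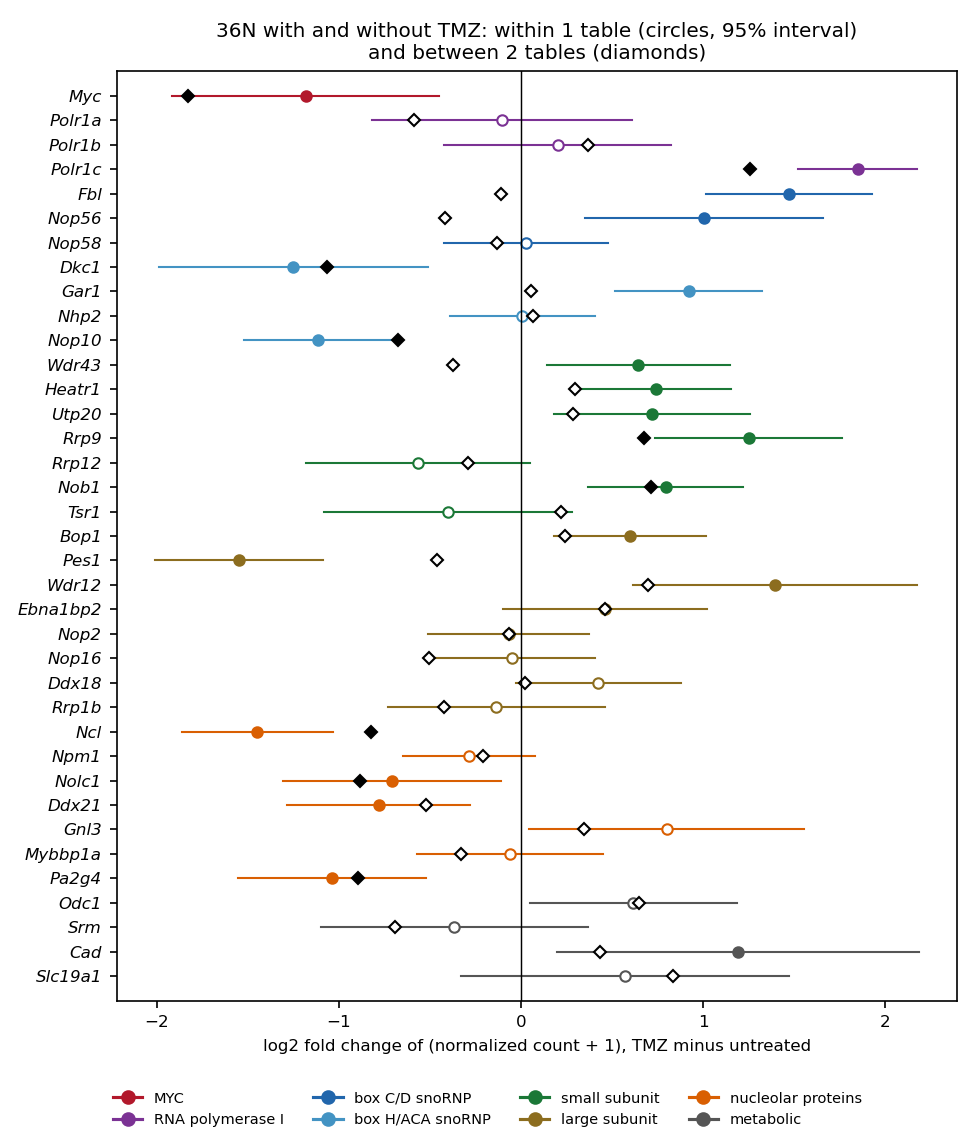
Log2 fold change of 36N with TMZ against untreated 36N (x axis) for the 37 members ordered and coloured by role (y axis); circles with 95% intervals are from the table that holds both groups, diamonds are between tables, and filled symbols passed the test. Circles spread from -1.55 (Pes1) to 1.85 (Polr1c), and the diamonds of Fbl, Nop56, Nop58, Wdr43 and Tsr1 lie on the other side of 0.

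Of the 20 calls within the table, 14 held when each library was left out in turn. Wdr43 lost its call in 4 of 6 such fits (without untreated libraries 5 and 6 and treated libraries 4 and 5, adjusted p up to 0.0935). Utp20 lost it in 3 (untreated 5 and 6, treated 5, up to 0.0811), Bop1 in 2 (untreated 5 and 6, up to 0.0616) and Ddx21 in 1 (untreated 4, 0.0509). Nolc1 lost it in 4 (untreated 4 and 5, treated 4 and 6, up to 0.128) and Cad in 5 (all but treated 6, up to 0.123). Within the treated group, 36N library 5 had the highest value for 37 of 37 members and library 6 the lowest for 33 of 37.

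Other genes of the MYC network changed with TMZ too. Of 14 tested, 6 were lower and 6 higher within the table, beside 33.5% and 36.3% of all genes. Mycn, a paralog of Myc, stood at 0, 1.09 and 0 untreated and at 406, 146 and 287 with TMZ (log2 fold change 7.66, limma adjusted p = 1.15e-05). Mycl, another paralog, went the other way, from 110.0, 60.6 and 224 untreated to 3.57, 0 and 0 with TMZ (-6.12, limma adjusted p = 2.01e-04). Genes whose products compete with MYC for MAX went both ways. Mxd1 (1.31) and Mxd3 (1.51) were higher, and Mxi1 (-1.65), Mga (-1.64), Mnt (-1.11) and Mxd4 (-0.54) were lower. The fold changes of Mycn and Mycl, each with values near 0 in 1 group, depend on the pseudocount and give no bound.

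The other ribosome lists were split in the same way. Of 12 other RNA polymerase I genes 4 were lower and 5 higher, among them Taf1d (-3.44) and Taf1c (1.72), subunits of the promoter selectivity factor. Of 38 other small subunit genes 12 were lower and 12 higher, from Nol6 (-1.02) to Emg1 (1.75). Of 34 other large subunit genes 9 were lower and 9 higher, from Sdad1 (-1.79) to Ddx51 (1.59). Over all genes in this fit, 33.5% were lower and 36.3% higher. The medians of the 4 lists ran from -0.06 to 0.14, beside 0.06 over all genes. Counts and medians of these lists are from within the table only.

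Cell type markers also shifted with TMZ, some of them far more than any member. All 11 mast cell and basophil markers tested were higher with TMZ, with a median log2 fold change of 9.56. Their sum over 12 genes was 628 to 1817 in untreated and 113800 to 308900 in treated 36N libraries, and Fcer1a, Mcpt4, Tpsb2 and Tpsab1 were at 0 in all 3 untreated libraries. Of 7 B and plasma cell markers tested 6 were lower, with sums of 8786 to 15140 untreated and 233 to 530 with TMZ. Of 7 T and NK cell markers tested 4 were lower and 2 higher, with sums of 183 to 278 untreated and 6360 to 9039 with TMZ, where Cd3e and Gzma were at 0 in all 3 libraries. Monocyte and neutrophil markers shifted less. Of 10 monocyte and macrophage markers 3 were lower and 5 higher (median 0.85). Their sums went the other way, from 77070 to 88680 untreated down to 23190 to 64680 with TMZ. Of 10 neutrophil markers 3 were lower and 1 was higher (median -0.67), with sums that overlapped between the groups. In 36S with TMZ the mast cell and basophil sum was likewise high, at 153700 to 415800. TMZ and this shift in markers cannot be told apart in the comparison, and the part of the shift in the members' values was not tested.

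Between the genotypes with TMZ, no member passed the test. With limma 0 of 37 passed, beside a background of 0% of 14246 genes. In that fit 0 members had an unadjusted p under 0.05, beside 191 genes or 1.34%. The fit was unpaired and no block was tried, although Myc ran in the same order over the libraries of both genotypes as listed. Spread shared by libraries listed at the same place would widen the error. The test therefore does not show that the genotypes were alike. Myc stood at 2204, 2457 and 1175 in 36S with TMZ and at 2009, 2380.3 and 951 in 36N with TMZ. These overlapped almost fully, with a log2 fold change of -0.16 (SE 0.40, 95% interval -1.10 to 0.77). Wdr12 stood at 1294, 1881 and 1419.9 in 36S and at 993, 2150.0 and 1037 in 36N (-0.21, SE 0.32). The log2 fold changes of the members ran from -0.42 (Slc19a1) to 0.15 (Odc1), with a median of -0.09. Leaving out 36S library 2 or 36N library 6 turned that median to 0.05 or 0.09. Library 2 held the highest 36S value for 29 of 37 members and library 6 the lowest 36N value for 33 of 37. Library 5 held the highest 36N value for 36 of 37, and leaving it out moved the median to -0.24. The lists of other MYC network, RNA polymerase I, small subunit and large subunit genes also held 0 calls.

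Whether the 36N against 36S difference was another with TMZ than without was tested directly over 12324 genes. None of the 37 members passed, beside 0.333% of all genes. An unadjusted limma p under 0.05 was reached by 0 members, beside 861 genes or 6.99%. The interaction of Myc was 0.33 on the log2 scale (SE 0.46, 95% interval -0.67 to 1.33, limma adjusted p = 0.943). The member with the lowest p was Wdr12, with 0.59 (SE 0.40, 95% interval -0.28 to 1.47, limma adjusted p = 0.892). The median over the members was 0.21, beside 0.03 over all genes, and it ran from 0.02 without 36N TMZ library 5 to 0.37 without 36N TMZ library 6. The intervals are wide, and these tests do not show that the genotype difference was the same under both conditions.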

How the data were processed

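The authors deposited gene tables of normalized counts, a signal per gene with no raw counts beside it. Salmon, DESeq2 and the build mm10 are named per the submitters' processing notes, with no versions. Libraries were made after poly(A) selection, per the labels' protocols. What each tool did, which gene annotation was used and whether strand was counted are not given in the sources at hand. From these, log2(value + 1) was taken, genes that reached 10 in 3 or more libraries were kept, and limma 3.58.1 (R 4.3.3) was run with a mean-variance trend. P-values were adjusted over all genes tested (Benjamini-Hochberg), and an adjusted p under 0.05 was called. Comparisons were made within a table, and the interaction used group means over 2 tables. Library numbers are not taken as pairs: the deviations of untreated and treated 36N libraries of the same number correlated at 0.019, 0.0371 and 0.0858. No such check was made between 36S and 36N libraries, and no block was fitted there. In untreated marrow 36S library 3 and 36N library 6, each listed last, were lowest for 28 and 35 of 37 members. The members and gene lists were chosen with earlier results of these data known. Named were Myc, in each role the members past the threshold or else the member with the lowest p, with values per library for the 10 largest changes, and at most 4 genes each way of the other lists. Mnt and Mxd4 were named besides these. Alternatives were pseudocounts, filters, scalings, a fit without the trend and each library left out. For TMZ in 36N only, a replicate block and the between-tables fit were added. Coordinates are from GENCODE M21 (mm10), promoters from RefSeq (GRCm38.p6). The script was tested on simulated data. Gfi1 was listed in 1 of the 4 tables only, so no level of it was at hand for 36S or KD.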

Additional observations from a re-analysis of the deposited data

How the results depend on the processing

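The medians of the members moved by less than their spread between libraries in every alternative, but 2 of them changed sign: that for TMZ in 36N went from 0.03 to -0.13 at equal totals, -0.11 between tables, -0.11 without untreated library 6 and -0.08 without treated library 5, and that for both genotypes with TMZ went from -0.09 to 0.05 and 0.09 without 36S library 2 and 36N library 6. In 36N against 36S the count of members lower went from 1 to 0 with a pseudocount of 0.5, without the filter, at equal totals and without the trend, and was 0 to 1 with single libraries left out. In KD it went from 5 to 12 at equal totals, 8 with quantile normalization and 1 without the trend, and was 1 to 3 with single libraries left out. For TMZ in 36N the count of members higher went from 12 to 3 between tables, where Fbl (-0.11), Nop56 (-0.42) and Wdr43 (-0.37) changed sign. With a replicate block on the library numbers 9 members were lower and 15 higher with TMZ, beside 8 and 12 without it. With TMZ in both genotypes, leaving out single libraries moved the log2 fold change of Myc between -0.49 and 0.24, of Nop56 between -0.50 and 0.0415, of Dkc1 between -0.57 and 0.16, of Gnl3 between -0.54 and 0.0036 and of Slc19a1 between -0.96 and 0.0256. The cause of these changes was not tested, apart from the fewer samples where libraries were left out. Read depth is unknown, so no counting limit can be given, and 3 libraries per group limit the precision.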
